A study of Sus scrofa with 6 samples.

Results

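Selenoproteins are proteins that carry selenium as the amino acid selenocysteine, and glutathione peroxidases are the enzymes, several of them selenoproteins, that reduce hydrogen peroxide and lipid peroxides with glutathione. This account covers 8 genes of these families: SELENOP, GPX1, GPX2, GPX3, GPX4, TXNRD1, SELENOW and SELENOS. All 8 had at least 1 probe set carrying that single symbol in the platform annotation, 11 probe sets in all, out of 6765 named genes and 23999 tested probe sets. The genes were chosen with the difference between the cell lines in view, in particular because SELENOP and GPX3 went opposite ways, so their differences are given as a description without a test.

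The arrays set OBGF400, labelled as neuroblasts from porcine olfactory bulb, against PK15, a pig line labelled non-neuronal and epithelial that served as somatic background. Each line had 3 arrays, and RNA from 9 cultures of a line was combined into 3 pools, so replicates are pooled cultures and not animals. Both lines were untreated and grown with 10% bovine calf serum. OBGF400 was kept in a DMEM and F12/HAM mixture and PK15 in minimum essential medium with amphotericin B, and medium and line cannot be told apart. Any p-value below therefore measures the spread between pools only.

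Selenocysteine is inserted at a UGA codon, which otherwise ends translation, with the help of a stem-loop in the mRNA and of dedicated binding and elongation factors. Cells obtain much of their selenium from secreted selenoprotein P (SELENOP), which is taken up by the receptors LRP8 and LRP2, and free it again with selenocysteine lyase (SCLY). The peroxidases draw their electrons from glutathione, and thioredoxin reductase draws them from NADPH to keep thioredoxin reduced.

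Values are log2 signals of single probe sets, which compare the lines for 1 probe set but not 1 probe set with another. The table has a common lower limit of 2.13, called the floor, and "at the floor" means within 0.1 of that limit on each of a line's 3 arrays. Over all probe sets the arrays correlated at 0.997 to 0.998 among OBGF400 and at 0.996 among PK15, against 0.860 to 0.865 between the lines, a description across probe sets that are not independent. The array's spiked controls did not sit at equal levels in the lines. The hybridization controls were lower in OBGF400 by a mean difference of -0.82, and the dap and thr poly-A controls were higher by 0.85, so differences smaller than these change sign with the control chosen for scaling. The other poly-A controls, lys and phe, differed by -0.29 and -0.11, opposite to dap and thr, and were not used for scaling. Scaling on the hybridization controls moved the median difference of all genes to 0.82, scaling on dap and thr moved it to -0.86, and as deposited it was -0.002. The 28S rRNA probe sets differed by 1.07, the actin 5 prime control probe sets by 0.68 and the actin 3 prime ones by 0.20. The part of RNA quality in the results was not tested.

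The labelled cell types were set against a few markers with limma over all genes at an adjusted p under 0.05. All 5 epithelial markers (KRT8, KRT18, KRT19, EPCAM, CDH1) were lower in OBGF400, with KRT18 and KRT19 at the floor there, and their summed signal was 4.73 to 4.81 in OBGF400 and 16.13 to 16.18 in PK15 (log2 of the sum). Of 8 neural markers 4 were measured. NCAM1, UCHL1 and MAP2 were higher in OBGF400 and STMN1 lower. Their summed signal was 12.80 to 12.91 in OBGF400 and 11.74 to 11.94 in PK15. The PK15 sum was nearly all STMN1 (mean 11.85), with NCAM1 at 2.68, MAP2 at 3.54 and UCHL1 at the floor there. DCX, TUBB3, NES and SOX2 had no named probe set and were not analysed here. Of 6 mesenchymal markers 5 were measured and 4 were higher in OBGF400 (COL1A2, MMP2, PDGFRB, THY1), with a summed signal of 14.72 to 14.92 in OBGF400 and 4.98 to 5.09 in PK15, where MMP2 was at the floor. Of 5 myeloid markers the 3 measured (AIF1, SPI1, LAPTM5) were lower in OBGF400, with a summed signal of 3.83 to 3.91 in OBGF400, where AIF1 was at the floor, and 11.82 to 11.93 in PK15. All 4 endothelial markers summed to 4.14 to 4.19 in OBGF400 and 4.74 to 5.74 in PK15, with VWF and KDR at the floor in both lines and PECAM1 in OBGF400, and CDH5 was lower in OBGF400 (2.20 ± 0.11 in OBGF400 and 4.43 ± 0.77 in PK15, SD, n = 3 each). The mesenchymal, myeloid and endothelial signals move with the line, as does every difference below, and their part in those differences was not tested.

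SELENOP, the secreted selenium carrier of plasma, had the widest separation of the 8 genes and was low in OBGF400. Its probe set gave 8.20, 8.21 and 8.30 on the OBGF400 arrays, against 15.16, 14.52 and 14.73 on the PK15 arrays. Every OBGF400 array lay below every PK15 array, and the closest pair of arrays was still 6.22 apart. The means were 8.24 ± 0.05 in OBGF400 and 14.80 ± 0.33 in PK15 (SD, n = 3 each), a difference of -6.56, or 94.5-fold lower in OBGF400. The OBGF400 signal was well above the floor, so SELENOP was lower there without reaching the lower limit of the table. In these bulk cultures, fewer cells with a transcript and less transcript per cell cannot be told apart. The difference stayed negative under each scaling tried, at -5.74 on the hybridization controls and -7.42 on dap and thr.

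GPX3, the secreted glutathione peroxidase of plasma, was high in OBGF400. Kidney tubule cells are a known source of plasma GPX3 in mammals. The probe set gave 11.56, 11.28 and 11.18 on the OBGF400 arrays, against 7.98, 7.29 and 7.47 on the PK15 arrays. The groups did not overlap, and the first array of each line was the highest of its group. The means were 11.34 ± 0.19 in OBGF400 and 7.58 ± 0.36 in PK15 (SD, n = 3 each), a difference of 3.76, or 13.5-fold. Scaling on the controls gave 4.58 (hybridization) and 2.90 (dap and thr). SELENOP and GPX3 lay on opposite sides of 0 on every scale tried, but the genes were chosen for these opposite directions. The control scalings move each array by a constant, smaller than either difference, so they could not have turned these signs.

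**Figure D1:**
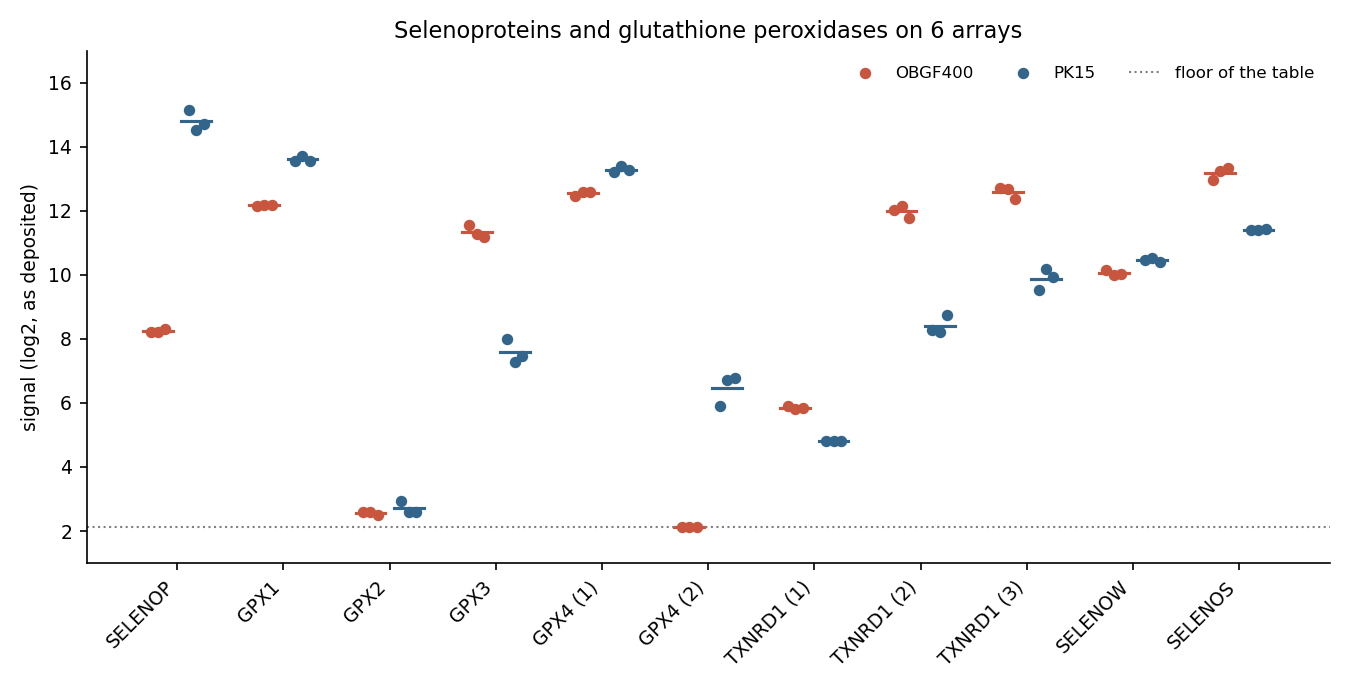
Deposited log2 signal of each of the 11 probe sets on the 6 arrays, OBGF400 to the left of PK15 at each position. Points are arrays, horizontal bars are means of 3 arrays, and the dotted line is the floor at 2.13. Numbers in brackets separate the probe sets of GPX4 and TXNRD1. SELENOP and GPX4 (2) sit far lower in OBGF400, GPX3, TXNRD1 and SELENOS sit higher, and the arrays of the lines overlap for GPX2.

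The intracellular peroxidases were lower in OBGF400 or near the floor. GPX1, the abundant cytosolic peroxidase, gave 12.16, 12.19 and 12.19 on the OBGF400 arrays, against 13.56, 13.70 and 13.57 on the PK15 arrays. All OBGF400 values were below all PK15 values, and the spread within a line was small. The difference was -1.43 (12.18 ± 0.02 in OBGF400 and 13.61 ± 0.08 in PK15, SD, n = 3 each), 2.70-fold lower in OBGF400. It became -0.61 on the hybridization controls and -2.29 on dap and thr, so its sign held on each scale.

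GPX4, the peroxidase that reduces lipid hydroperoxides within membranes and protects against ferroptosis, had 2 probe sets. The first gave 12.47, 12.58 and 12.59 in OBGF400, against 13.21, 13.39 and 13.27 in PK15. Here too the groups did not overlap, with a modest difference of -0.74, which turned to 0.080 on the hybridization controls. The second was at the floor on all OBGF400 arrays, at 2.13, against 5.90, 6.73 and 6.77 in PK15. Its difference of -4.33 depends on where the floor was set, and with 32 added to the linear values it was -1.74. Both probe sets of GPX4 were lower in OBGF400 as deposited, and their sizes cannot be set against each other.

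GPX2, the peroxidase known from gastrointestinal epithelium, was near the lower limit in both lines. It gave 2.59, 2.60 and 2.49 on the OBGF400 arrays, against 2.95, 2.60 and 2.60 on the PK15 arrays. The arrays of the lines overlapped, and the difference of -0.16 was smaller than the PK15 spread of 0.20 (SD, n = 3). It became 0.67 on the hybridization controls. A signal this close to the floor does not show whether the transcript is present.

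TXNRD1, the cytosolic thioredoxin reductase and a selenoprotein, was higher in OBGF400 by all 3 of its probe sets. The brightest gave 12.72, 12.67 and 12.37 in OBGF400, against 9.51, 10.18 and 9.93 in PK15. A probe set on the same record gave 12.03, 12.14 and 11.77 in OBGF400, against 8.29, 8.20 and 8.75 in PK15. The third gave 5.90, 5.81 and 5.84 in OBGF400, against 4.82, 4.81 and 4.81 in PK15. No probe set had overlapping groups, but the size of the difference varied with the probe set, at 2.71 (6.54-fold), 3.57 (11.9-fold) and 1.04 (2.06-fold). The difference of the third probe set was 0.58 with 32 added to the linear values and 0.19 on dap and thr. The other 2 stayed at or above 1.85 on each scale.

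SELENOS, a selenoprotein of the endoplasmic reticulum membrane that takes part in removing misfolded proteins, was higher in OBGF400. It gave 12.97, 13.24 and 13.34 on the OBGF400 arrays, against 11.39, 11.41 and 11.44 on the PK15 arrays. The PK15 arrays were nearly equal, and the lowest OBGF400 array lay 1.54 above the highest PK15 array. The means were 13.18 ± 0.19 in OBGF400 and 11.41 ± 0.02 in PK15 (SD, n = 3 each), a difference of 1.77, or 3.41-fold, with 0.92 on dap and thr and 2.59 on the hybridization controls.

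SELENOW, a small cytosolic selenoprotein known for its abundance in muscle and brain, differed least among the genes whose groups were apart. It gave 10.14, 10.00 and 10.04 on the OBGF400 arrays, against 10.48, 10.54 and 10.39 on the PK15 arrays. All OBGF400 arrays were lower, by 0.25 for the closest pair. The difference of -0.41 was larger than the spread of 0.07 in OBGF400 and 0.08 in PK15 (SD, n = 3 each) but became 0.42 on the hybridization controls, so its sign rests on the scaling.

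**Figure D2:**
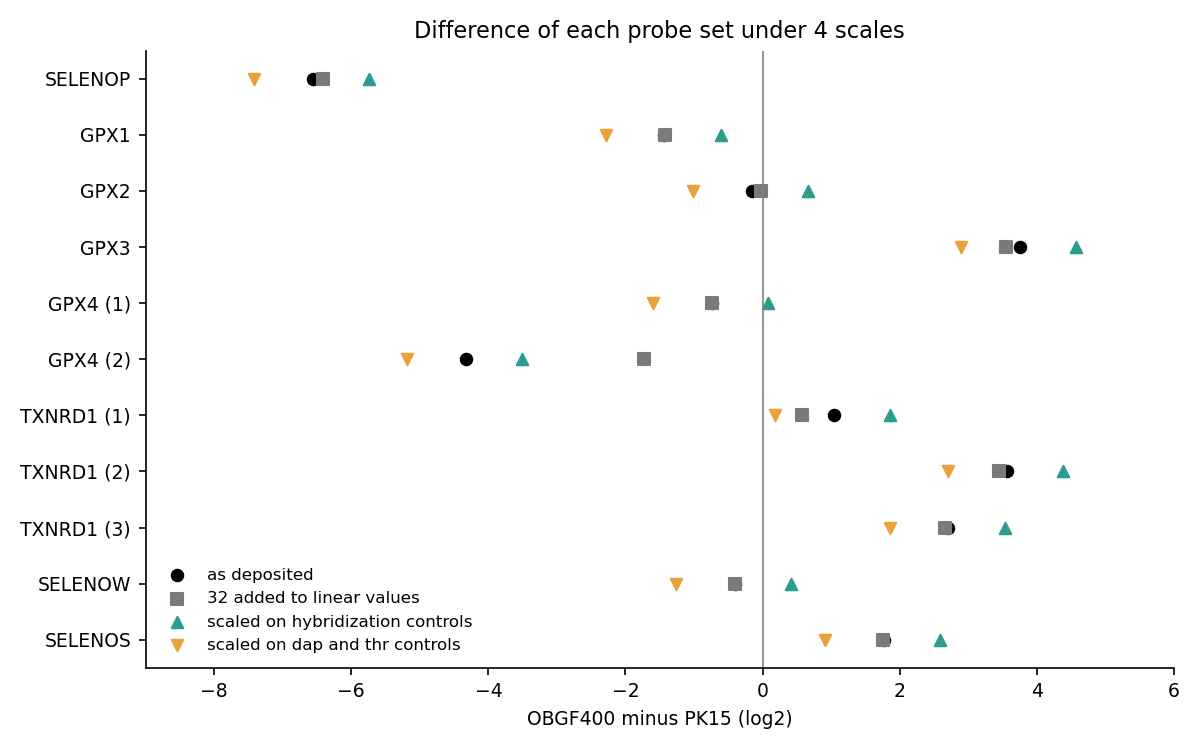
Difference between OBGF400 and PK15 (log2) for each probe set as deposited, with 32 added to the linear values, and after scaling either on hybridization controls or on dap and thr. SELENOP and GPX1 stay below 0, and GPX3, TXNRD1 and SELENOS stay above 0 on each scale, while GPX2, GPX4 (1) and SELENOW cross 0 on the hybridization controls.

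With the brightest probe set standing for a gene, 7 of the 8 genes had no overlap between OBGF400 and PK15 arrays, 3 higher and 4 lower in OBGF400, against 66.9% of all genes (26.8% higher and 40.1% lower). At probe set level this held for 10 of 11, against 50.5% of all probe sets. The median absolute difference of the 8 genes was 1.60, beside 0.60 over all genes, and 5 of 8 differed at least 2-fold, beside 36.2% of all genes. The genes were chosen from this same contrast, so nothing further is read from these shares. The median signed difference was -0.28, beside -0.002 over all genes.

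For SELENOP and GPX3, the genes of most similar pattern were found by the root mean square distance between profiles over the 6 arrays, each centred on its own mean, among the other 6764 genes. Those nearest to SELENOP were CYP2C91 (0.094 log2 units), the pleckstrin family gene PLEK2 (0.12) and the Notch-modifying glycosyltransferase gene LFNG (0.15). CYP2C91 and PLEK2 were at the floor in OBGF400, at 2.15 ± 0.02 and 2.13 ± 0.01 (SD, n = 3), where SELENOP was not. In PK15 they were at 8.81 ± 0.22 and 8.69 ± 0.19 (SD, n = 3). Nearest to GPX3 were PQLC3 (0.10), the metalloproteinase inhibitor gene TIMP3 (0.11) and SERPING1, the C1 inhibitor of complement (0.13). TIMP3 averaged 10.60 ± 0.26 in OBGF400 and 6.95 ± 0.35 in PK15, and SERPING1 averaged 10.83 ± 0.07 in OBGF400 and 7.05 ± 0.19 in PK15 (SD, n = 3 each). With 2 lines, such a distance mainly ranks genes by the size of their difference between the lines.

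**Figure D3:**
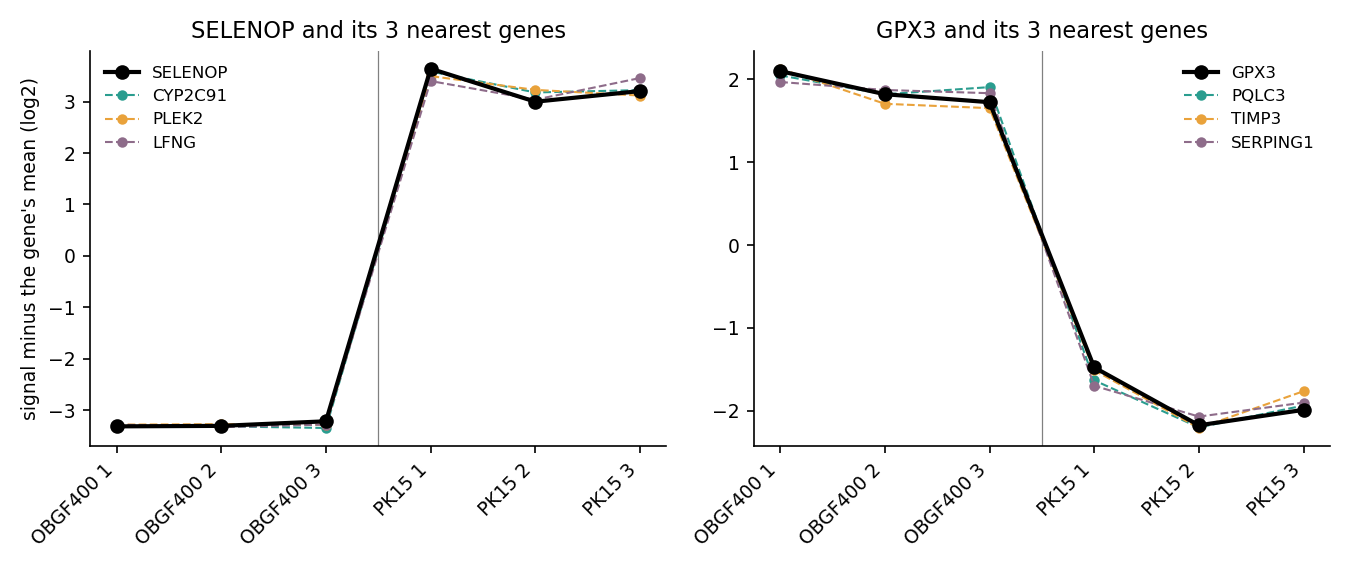
Log2 signal minus the gene's own mean over the 6 arrays, for SELENOP (left) and GPX3 (right) in black and for the 3 genes nearest to each in colour. Points are arrays, OBGF400 left of the vertical line and PK15 right of it. The profiles step between the lines and vary far less within a line.

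Around these genes, 6 lists of 85 genes of selenium, glutathione and thioredoxin metabolism were examined, of which 54 had a named probe set. By limma over all 6765 genes at an adjusted p under 0.05, 16 were higher in OBGF400 (29.6%, against 23.9% of all genes), 20 were lower (37.0%, against 36.8% of all genes) and 18 were not called. The median difference was -0.01. On the hybridization controls 37 were higher and 10 lower, and on dap and thr 8 were higher and 40 lower, so the balance of directions depends on the scaling. The same holds for all genes, of whose calls 39.4% were higher in OBGF400 as deposited, 78.1% on the hybridization controls and 12.8% on dap and thr. The shares as deposited lay near those of all genes, and genes of either direction occurred within the lists on glutathione, on thioredoxins and on selenoproteins.

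Of 17 other selenoproteins 13 were measured, with 4 higher (30.8%), 3 lower (23.1%) and 6 not called, against the 23.9% and 36.8% of all genes (10 higher and 2 lower on the hybridization controls, 3 higher and 9 lower on dap and thr). The scaled counts include genes dim in both lines, among them DIO1 and GPX6, whose values were equal on all 6 arrays and took their sign from the scaling. TXNRD3, the thioredoxin and glutathione reductase known from testis, was at 7.59, 7.76 and 7.67 in OBGF400, against 3.18, 3.82 and 3.45 in PK15. Its difference was 4.19 ± 0.18 (SE, limma adjusted p = 6.46e-05), and both of its probe sets were called. The PK15 level was dim, and with 32 added to the linear values the difference was 2.45. TXNRD1 and TXNRD3 were thus higher in OBGF400 by all of their probe sets as deposited. MSRB1, a methionine sulfoxide reductase, was at 10.41, 10.32 and 10.28 in OBGF400, against 8.11, 8.14 and 8.23 in PK15, a rise of 2.18 ± 0.05 (SE, limma adjusted p = 9.27e-06). SELENOM, a thioredoxin-like protein of the endoplasmic reticulum, rose by 1.77 (limma adjusted p = 0.000361). SELENON, which supports calcium handling in muscle, rose by 0.64 (limma adjusted p = 0.000513), a difference that became -0.21 on dap and thr.

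The selenoproteins that were lower in OBGF400 were SELENOH, SELENOT and SELENOF. SELENOH, a nuclear selenoprotein, was at 9.45, 9.55 and 9.46 in OBGF400, against 11.08, 11.21 and 10.94 in PK15, a difference of -1.59 ± 0.08 (SE, limma adjusted p = 9.75e-05). Its second probe set was near the floor in both lines and was not called. SELENOT, a redox protein of the endoplasmic reticulum membrane, averaged 11.36 ± 0.05 in OBGF400 and 12.61 ± 0.08 in PK15 (SD, n = 3 each), and SELENOF, which binds the glycoprotein folding sensor of that compartment, at 12.03 ± 0.06 in OBGF400 and 13.14 ± 0.12 in PK15. Their differences were -1.26 and -1.11, and the SELENOF call was lost on the hybridization controls (-0.29, adjusted p = 0.0903).

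The remaining selenoproteins were not called. SEPHS2, which makes the selenium donor for selenocysteine synthesis and is itself a selenoprotein, averaged 11.76 ± 0.01 in OBGF400 and 11.65 ± 0.10 in PK15 (SD, n = 3 each; limma adjusted p = 0.152). Without PK15 replicate 3 it was called higher (0.16). Of its 3 probe sets 1 was called higher, at 9.97 ± 0.10 in OBGF400 and 9.44 ± 0.02 in PK15. The deiodinases of thyroid hormone were dim: DIO1 gave 2.33 on all 6 arrays, DIO3 was at 2.13 in OBGF400 and 2.17 in PK15, and DIO2 was at 3.57 in OBGF400 and 3.37 in PK15. GPX6, an olfactory glutathione peroxidase in human, was at the floor on every array, as were GPX5 and GPX7, relatives that use cysteine in place of selenocysteine. SELENOI averaged 2.29 in OBGF400 and 2.24 in PK15. SELENOK, SELENOO, SELENOV and TXNRD2 had no probe set of their own name and were not analysed here.

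Of 12 genes for selenocysteine synthesis, insertion and selenium uptake only 6 were measured, 1 of them higher (16.7%) and 2 lower (33.3%), against 23.9% and 36.8% of all genes (5 higher and 1 lower on the hybridization controls, 1 higher and 5 lower on dap and thr). SCLY, the lyase that frees selenium from selenocysteine, was at 4.41, 3.98 and 5.04 in OBGF400, against 9.31, 9.33 and 9.12 in PK15. The groups were far apart, with a difference of -4.78 ± 0.30 (SE, limma adjusted p = 0.000197). The OBGF400 level was dim, so the size of this difference depends on how low signals are treated. The lyase and the selenium carrier SELENOP were thus both lower in OBGF400. SECISBP2L, a paralogue of the protein that binds the selenocysteine insertion stem-loop, averaged 11.68 ± 0.05 in OBGF400 and 9.29 ± 0.26 in PK15 (SD, n = 3 each), a rise of 2.39. Its second probe set was also higher (3.14), but it was near the floor in PK15 (2.18), so that size depends on how low signals are treated.

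LRP8, a receptor that takes up SELENOP in brain and testis, was at 9.59, 9.94 and 9.96 in OBGF400, against 10.28, 10.17 and 10.20 in PK15. The difference of -0.39 just passed the test (limma adjusted p = 0.0411). It was not called without OBGF400 replicate 2 (-0.44) or 3 (-0.46), without PK15 replicate 1 (-0.36), 2 (-0.41) or 3 (-0.40) or after quantile normalization, and was 0.43 on the hybridization controls. LRP2, the receptor of kidney tubules for SELENOP, was near the floor at 2.23 in OBGF400 and 2.46 in PK15. SELENBP1, which binds selenium without being a selenoprotein, was at 2.72 in OBGF400 and 2.75 in PK15, and neither was called as deposited. SELENBP1 was called without PK15 replicate 2 (-0.05), and the control scalings gave both genes calls whose sign followed the scaling. SEPHS1, SEPSECS, PSTK, SECISBP2, EEFSEC and TRNAU1AP had no named probe set and were not analysed here.

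Of 18 genes for glutathione synthesis, recycling and the cysteine peroxidases, 13 were measured, with 3 higher (23.1%), 6 lower (46.2%) and 4 not called, against 23.9% and 36.8% of all genes (7 higher and 3 lower on the hybridization controls, 1 higher and 10 lower on dap and thr). The scaled counts include GPX5 and GPX7, which were at the floor on every array and took their sign from the scaling. The subunits of glutamate-cysteine ligase, the first enzyme of glutathione synthesis, went opposite ways. The catalytic subunit gene GCLC was at 9.84, 9.67 and 9.51 in OBGF400, against 7.57, 7.22 and 7.77 in PK15. The modifier subunit gene GCLM was at 7.54, 7.33 and 6.83 in OBGF400, against 9.47, 9.49 and 9.60 in PK15. Neither pair of groups overlapped, and the differences were 2.16 ± 0.18 for GCLC and -2.29 ± 0.20 for GCLM (SE, limma adjusted p = 0.000459 and 0.000593). Of 5 GCLC probe sets 3 were called, all higher, and of 2 GCLM probe sets 1 was called, the uncalled ones of each gene being at the floor in both lines.

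Of the 4 measured glutaredoxins, small glutathione-dependent oxidoreductases, GLRX2, GLRX3 and GLRX5 were lower as deposited (GLRX5 was above 0 and not called on the hybridization controls), and GLRX was not called (0.24, limma adjusted p = 0.224). GLRX3 differed by -2.07 (limma adjusted p = 3.89e-06), and the mitochondrial GLRX2 averaged 9.89 ± 0.03 in OBGF400 and 11.89 ± 0.10 in PK15 (SD, n = 3 each). SLC3A2, the heavy chain of the cystine transporter, rose by 0.77 and GGT7, of the gamma-glutamyltransferase family, by 0.76 (0.22 with 32 added to the linear values), and on dap and thr these became -0.087 and -0.095.

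Of 19 thioredoxin, peroxiredoxin, catalase and superoxide dismutase genes and their regulators, 16 were measured, with 7 higher (43.8%), 8 lower (50%) and 1 not called, against 23.9% and 36.8% of all genes (10 higher and 3 lower on the hybridization controls, 2 higher and 11 lower on dap and thr). TXNIP, the inhibitor that binds thioredoxin, was at 13.06, 12.88 and 13.00 in OBGF400, against 9.45, 9.40 and 9.51 in PK15, a rise of 3.53 ± 0.06 (SE, limma adjusted p = 4.01e-06). NQO1, a quinone reductase, rose by 1.79 (12.75 ± 0.09 in OBGF400 and 10.97 ± 0.14 in PK15, SD, n = 3 each). HMOX1, the inducible heme oxygenase, was higher by 0.90 (limma adjusted p = 0.0156), a call lost without PK15 replicate 1 (0.83) or 3 (0.90) and on dap and thr (0.050).

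The largest falls of that list were those of SOD3, PRDX3 and PRDX5. SOD3, the extracellular superoxide dismutase, ranged over 3.68 to 4.08 in OBGF400, against 5.75, 5.88 and 7.44 in PK15, where the third array stood above the other two. Its difference of -2.44 ± 0.53 (SE, limma adjusted p = 0.014) was not called without OBGF400 replicate 1 (-2.31), and it was -1.31 with 32 added to the linear values. PRDX3, the mitochondrial peroxiredoxin, averaged 11.49 ± 0.10 in OBGF400 and 13.01 ± 0.17 in PK15, and PRDX5, also found in mitochondria, averaged 9.69 ± 0.14 in OBGF400 and 10.84 ± 0.09 in PK15 (SD, n = 3 each). These differences were -1.51 and -1.14.

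**Figure D4:**
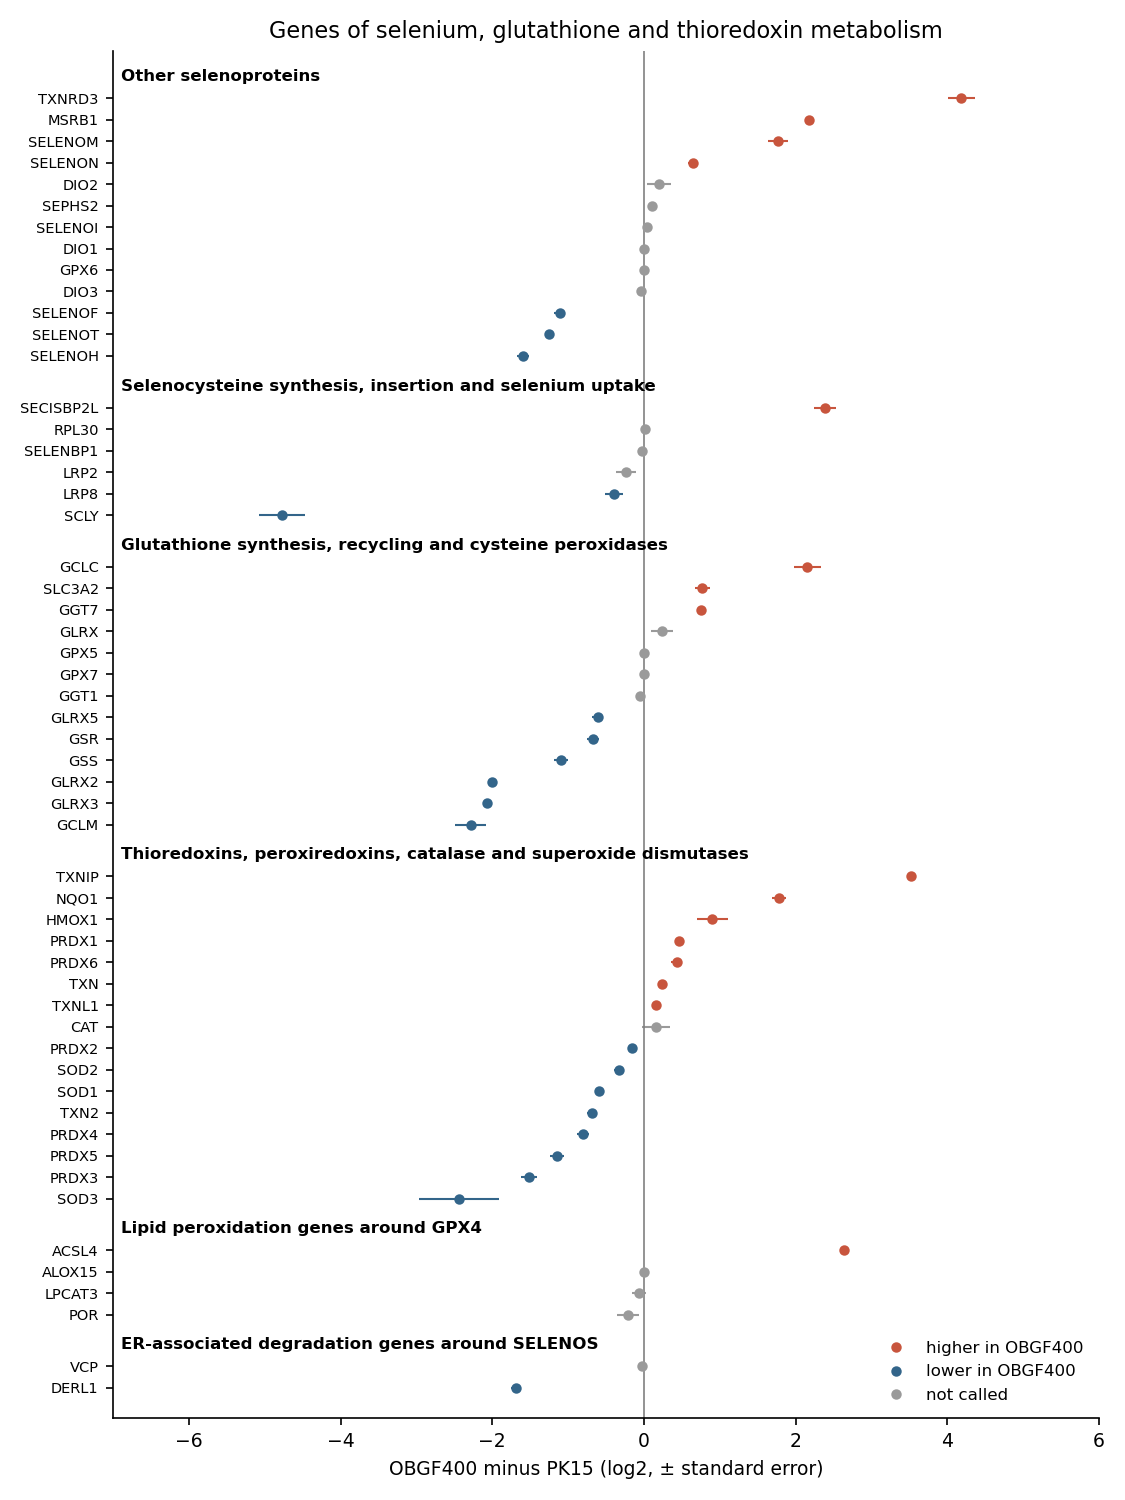
Difference between OBGF400 and PK15 (log2, points) with its standard error from limma (bars) for the 54 measured genes of the 6 lists, ordered by difference within each list. Red marks the 16 genes higher in OBGF400, blue the 20 lower and grey the 18 not called. TXNRD3 and TXNIP lie farthest right and SCLY farthest left.

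Few genes were measured in the lists around GPX4 and SELENOS. ACSL4, which loads membrane lipids with the polyunsaturated fatty acids whose peroxides GPX4 reduces, was at 14.51, 14.43 and 14.48 in OBGF400, against 11.85, 11.73 and 11.91 in PK15. It rose by 2.64 ± 0.05 (SE, limma adjusted p = 7.31e-06), the only call among 4 measured of 9 listed lipid peroxidation genes (4 higher on the hybridization controls, 1 higher and 3 lower on dap and thr, and 1 lower besides without PK15 replicate 1). The scaled counts include ALOX15, which was at the floor on all 6 arrays and took its sign from the scaling. DERL1, a membrane component of the degradation machinery that SELENOS binds, was lower, with means of 10.02 ± 0.11 in OBGF400 and 11.70 ± 0.05 in PK15 (SD, n = 3 each), a difference of -1.68. It was the only call of 2 measured among 10 listed (1 higher and 1 lower on the hybridization controls, 2 lower on dap and thr), so DERL1 and SELENOS went opposite ways.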

How the data were processed

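The deposited table holds 1 log2 signal per probe set for each of 6 Affymetrix porcine arrays, 3 of OBGF400 and 3 of PK15, from 8 µg of total RNA per pool per the labels' protocols. The package affy was used, per the submitters' processing notes. Background correction, summarisation and normalization: not given in the sources used here. Means per array were 5.41 to 5.42, and the floor held 25.8% to 27.3% of an array's values. The number of arrays limits the precision.

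Tests excluded 124 control probe sets. The platform's annotation gave 1 symbol to 10069 of the remaining 23999, several to 198 and none to 13732, and only the first kind was named. Of the 10069, 9961 matched the RefSeq gene table of Sscrofa11.1 by Entrez number, and 0 were renamed. The probe set with the highest mean stood for a gene. Differences between lines were tested by limma 3.58.1 (lmFit and eBayes, two-sided, Benjamini-Hochberg adjustment over all genes or all probe sets, threshold 0.05) in R 4.3.3, which was tested on simulated data, with tables made in Python 3.11.15. Differences are OBGF400 minus PK15. With 3 arrays against 3, single-gene exact tests cannot pass the threshold.

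The 8 genes, the lists and the tests were chosen with earlier results of these data known. Named were the 8 genes, from each list the 3 called genes that rose most and the 3 that fell most, every measured gene of the first 2 lists, genes at the floor, the 3 genes of most similar profile to SELENOP and GPX3, and the markers. Outside this rule, GLRX and GLRX5 were named with the other glutaredoxins, and some genes for probe sets that disagreed. TXNL1 was named for a call lost with the replicate block. GLRX5 was not among the 3 largest falls of its list. The alternatives are given in the closing section.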

Additional observations from a re-analysis of the deposited data

How the results depend on the processing

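Between the lines 10060 probe sets differed as deposited, 21558 with hybridization control scaling and 21593 with dap and thr poly-A control scaling. The number of pathway genes higher in OBGF400 was 37 and 8 under these scalings, and the number lower 10 and 40. Leaving out single arrays gave 8898 to 9483 probe sets, 3735 to 3979 genes, 14 to 16 pathway genes higher and 18 to 19 lower. The other summary counts stayed within 1.5 times the deposited ones under quantile normalization, the filter on the dimmest 25% of probe sets, 32 added to the linear values, a trended and robust variance, a threshold of 0.01, averaging over a gene's probe sets and the replicate block. Single genes were scored here only if they were members, picked from the lists by the naming rule, or in the first 2 lists. Other genes of the lists were not scored and could turn as well, as GLRX5 did on the hybridization controls. Among the scored genes the sign turned with hybridization control scaling for GPX2 (0.67), GPX4 (0.080, first probe set), SELENOW (0.42), LRP8 (0.43), DIO3 (0.79), LRP2 (0.59) and SELENBP1 (0.79). It turned with dap and thr scaling for SLC3A2 (-0.087), GGT7 (-0.095), SELENOI (-0.81), SELENON (-0.21), DIO2 (-0.65), SEPHS2 (-0.74) and RPL30 (-0.83). Under the alternatives, a single gene counted as unchanged if it stayed on its side of the threshold, and a member probe set if it moved no more than the spread. The count of a list did so if it stayed within 1.5 times the deposited one. By these criteria 696 values were unchanged, 45 moved further, 14 turned sign, 13 gained and 16 lost a call. The control scalings move each array by a constant, so under them the calls of genes near the floor in both lines carry no information on those genes. Same-numbered arrays of the lines deviated with correlations of 0.039, 0.007 and 0.019 and not every array correlated best with its own number, so the numbers were not taken as pairs. With the replicate block 8661 probe sets and 3782 genes differed, 14 pathway genes were higher and 19 lower, and the calls of LRP8 (adjusted p = 0.122), HMOX1 (adjusted p = 0.0758) and TXNL1 (adjusted p = 0.0585) were lost.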

Other observations

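Some genes of the lists had probe sets that disagreed. TXN, thioredoxin itself, was called higher in OBGF400 by its brighter probe set (14.68 ± 0.02 in OBGF400 and 14.45 ± 0.01 in PK15, a difference of 0.23) and lower by the other (8.77 ± 0.10 in OBGF400 and 9.52 ± 0.26 in PK15, SD, n = 3 each, a difference of -0.74). Both differences were smaller in size than those of the hybridization controls (-0.82) and of dap and thr (0.85), so their opposite signs rest on the deposited scale. The brighter GLRX probe set was not called (0.24), while the other was called lower (-0.83). The brighter VCP probe set, of the list around SELENOS, was not called (-0.03), while the other was called lower (-0.47). The brightest GSR probe set, of the glutathione list, was called lower (-0.67), while a second was not called (0.10). These called differences of VCP and GSR were smaller in size than that of the hybridization controls. The single named probe set of RPL30, a ribosomal protein that also binds the selenocysteine insertion stem-loop, gave 2.34 in OBGF400 and 2.32 in PK15, near the floor of the table.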
